A study of Mus musculus with 18 samples.

Results

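The collagens, the basement membrane laminins and their close partners were followed across 3 muscles of 2 mouse genotypes. They were taken as every probe set with a single gene symbol of the form Col, a number, a and a number, or Lama, Lamb or Lamc with a number, or equal to Nid1, Nid2, Hspg2 or Sparc. That gave 62 of the 12488 probe sets on the array, for 44 of the 8251 genes that the annotation names there. Total RNA was taken at 8 weeks of age from the extraocular muscles, which turn the eyeball, from leg muscle and from heart. There were 6 groups of 3 Affymetrix arrays, 1 for each tissue of mdx mice and of dko mice. The labels name mdx as the control. An mdx mouse carries a mutated dystrophin gene, and the name dko usually stands for a mouse that lacks dystrophin and its relative utrophin. Read that way, dystrophin is lost in all 6 groups, and no wild-type muscle is compared here. The labels do not spell dko out, do not name the strain or the muscles of the leg, and do not say whether the arrays of a group are separate animals. The p-values below thus rest only on how far arrays spread within groups, pooled over all 6 groups, and that spread may be technical.

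Collagens are trimers of helical chains. The fibrillar collagens type I, type III and type V form the cables of tendon, of the sheaths around muscle and of scar, and are made mostly by fibroblasts. Type IV collagen builds the sheet of the basement membrane around each muscle fibre, heart muscle cell and capillary. In that sheet laminin trimers of an alpha, a beta and a gamma chain bind dystroglycan and integrins on the cell, nidogens bridge laminin to type IV collagen, and perlecan adds heparan sulfate. Sparc is a collagen-binding protein that is secreted with them. Dystrophin and utrophin are the intracellular end of the chain that ties laminin to the actin cytoskeleton, and in dystrophic muscle fibrillar collagen builds up as fibrosis.

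Intensity was compared as log2(intensity + 166.7) for probe sets that exceeded the 40th percentile of an array (319.2 to 420.2 units) on at least 3 of the 18 arrays. Among the members 47 probe sets for 37 genes passed, and 15 did not. The tested ones were 11 of 13 probe sets of fibrillar collagens, 7 of 11 of basement membrane collagens (types IV, XV and XVIII), 15 of 20 of other collagens, 10 of 14 of laminin chains, all 3 of nidogens and perlecan, and the one for Sparc. The genes without a tested probe set were Col2a1, Col11a2, Col4a3, Col4a4, Col17a1, Col22a1 and Lama3. Their values ran from 19 units (Col22a1) to 778.2 units (Col2a1), with at most 2 arrays above the filter level for any of them, and no comparison is made with them. A probe set that passed through a group in which it was bright had to differ there, so counts below are counts of tested probe sets and not of all members. A level of one probe set is not set against that of another, because probes differ in how strongly they bind.

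Medians of the arrays numbered 3 (525.6 to 573.75 units) lay below those of the arrays numbered 1 or 2 (612.6 to 671.8), and their maxima were higher (47024 to 74434, against 33355 to 47589). Of the 47 tested members, 13 probe sets read higher on array 3 than on the mean of arrays 1 and 2 in all 6 groups, and 9 read lower in all 6. For Col1a1 the probe set 94305_at had a median ratio of 2.51 and the probe set 103709_at of the same gene 0.91. For Col3a1 the ratios were 1.66 at 98331_at and 0.49 at 161984_f_at. The number is shared by arrays of all tissues and both genotypes, so each test is given without and, where that changes a call, with the number as a block. For dko against mdx the block is a separate term in the model for each number within each tissue. For the tissues within a genotype it is a term for each number, common to all arrays. Utrn was read as a check of the genotype labels by 2 probe sets. At 92507_at it gave 219.9 to 414.3 units in the 9 dko arrays and 437.6 to 1086.5 in the 9 mdx arrays, without overlap. At 92508_s_at it gave 221.5 to 645.7 units in dko and 379.2 to 1005.2 in mdx, which overlapped, and the dko leg array 1 (645.7) read above the mdx leg array 1 (437.8). Whether the probes lie inside the altered stretch of the gene was not tested. Summed markers of heart muscle were 112792 to 334194 units in heart and at most 12681 elsewhere, and those of skeletal muscle fibres were 70136 to 265373 in extraocular and leg muscle and at most 22368 in heart. Of the 7 skeletal markers tested, Acta1 alone went the other way between mdx heart and mdx leg. It read 14479.6, 13100.4 and 14452.2 units in mdx heart and 256.1, 247.7 and 6656.3 in mdx leg. Myh2, also listed, was never above the filter level.

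**Figure D1:**
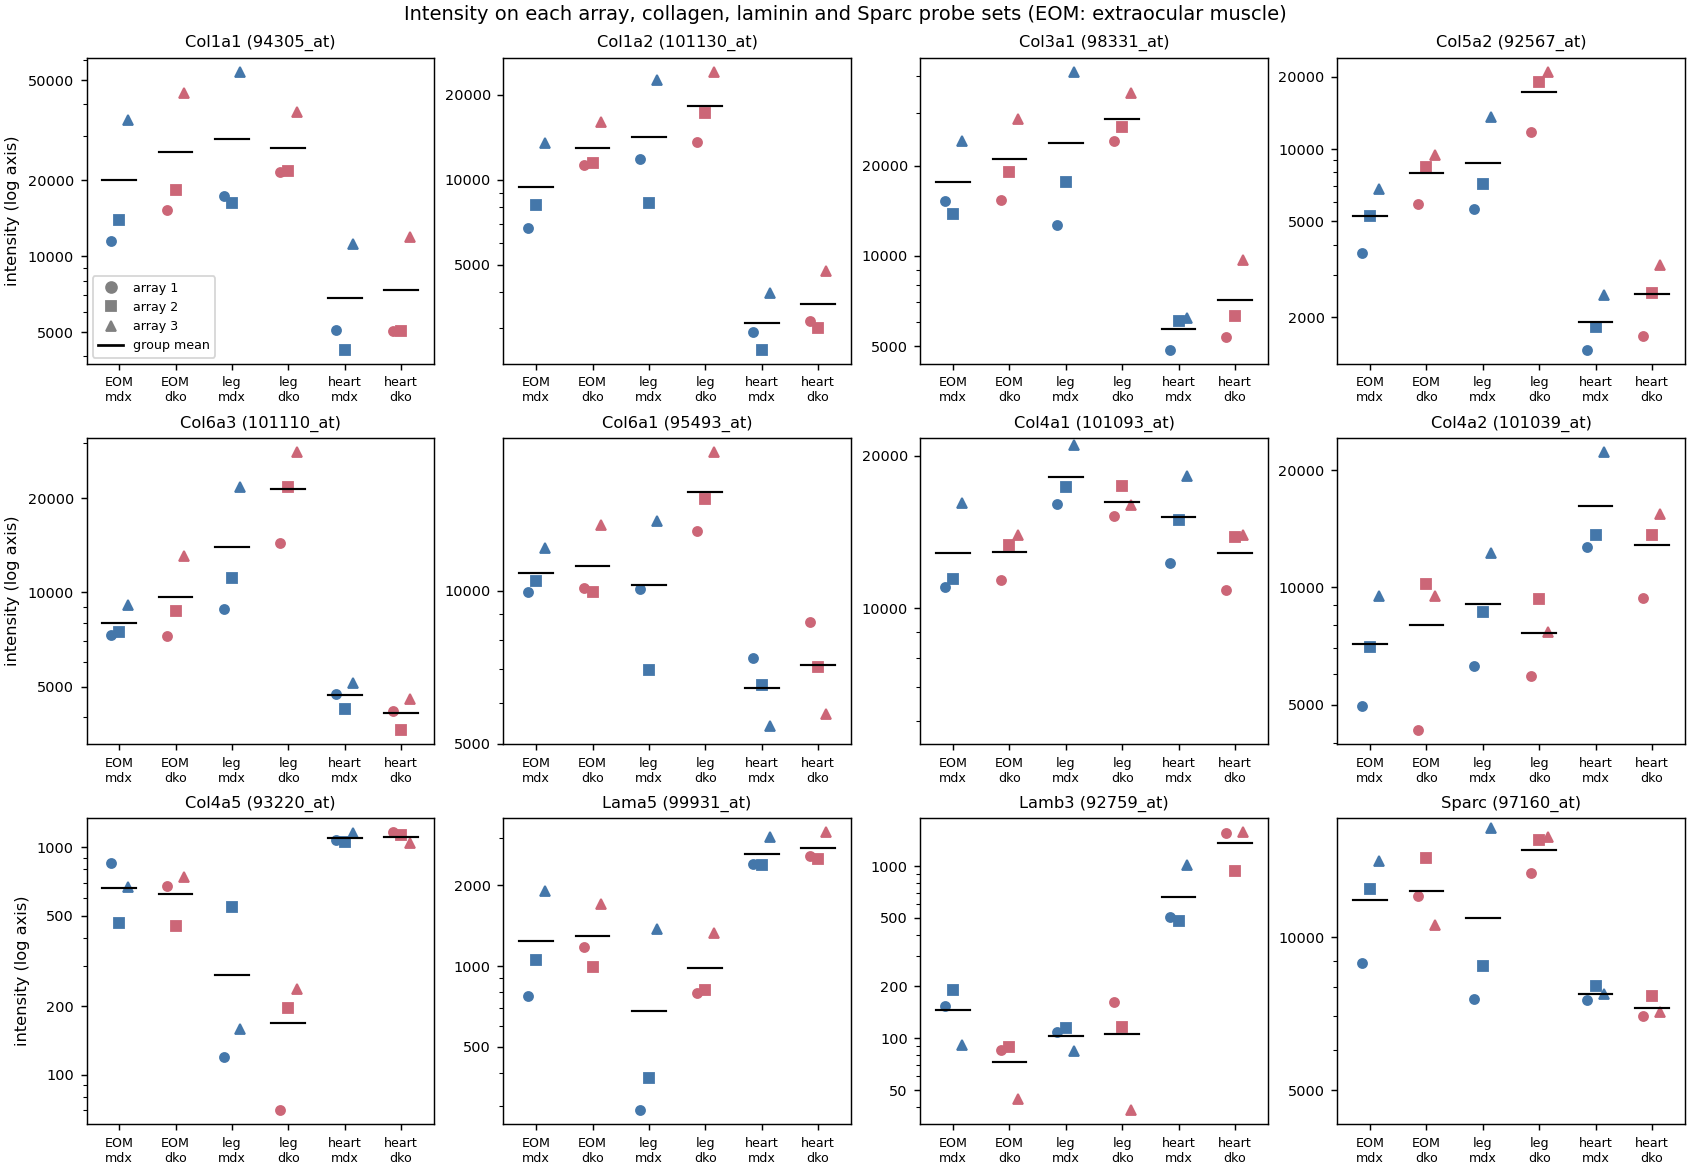
Intensity units (log axis) on each of the 18 arrays for 12 probe sets, by tissue and genotype, with the array number as the marker shape and the mean of the 3 arrays as a bar. The fibrillar collagens, Col6a3 and Col6a1 lie lowest in heart, where Col3a1 at 98331_at ranges from 4852 to 9706 units, while Col4a5, Lama5 and Lamb3 lie highest in heart.

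The first question was whether collagens or laminins differed between dko and mdx leg muscle. Without the block 0 of the 47 tested members were called by limma at an adjusted p under 0.05 in leg (8 had an unadjusted p under 0.05), and 0.0563% of all 8888 probe sets were. With the replicate number as a block 5 members were called, all of them higher in dko, against a background of 1.2% of all probe sets called in either direction and 1.01% called higher. They were the fibrillar collagens Col5a2 and Col3a1, the network-forming Col8a1, the fibril-associated Col14a1 and the nidogen Nid2. The median log2 difference, dko minus mdx, was 0.235 over the 47 members and -0.04 over all tested probe sets, and 32 of the 47 differences were above 0. By family the median was 0.33 for fibrillar collagens (8 of 11 above 0), 0.23 for basement membrane collagens (4 of 7), 0.25 for other collagens (10 of 15) and 0.12 for laminin chains (7 of 10). Sparc differed by 0.52 and was not called (adjusted p 0.215 with the block).

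Col5a2 encodes a chain of type V collagen, which starts type I fibrils and sets their width. Its probe set 92567_at read 5625, 7168 and 13553 units on the mdx leg arrays 1, 2 and 3 and 11843, 19030.2 and 20964 on the dko leg arrays of the same numbers. The dko array was higher in all 3 numbered pairs, although the brightest mdx array lay above the dimmest dko array. The log2 difference was 1.02 ± 0.35 (SE of the fit without the block), a 2.03-fold difference, with limma's adjusted p 0.515 without and 0.0204 with the block.

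Col3a1 encodes the single chain of type III collagen, which is abundant in early scar and in the sheaths of muscle. At 102990_at it read 2319.8, 2177 and 4473 units in mdx leg and 4822, 5966 and 8011 in dko leg, with every dko array above every mdx array. The log2 difference was 1.07 ± 0.26, with adjusted p 0.3 without and 0.0204 with the block. The other Col3a1 probe sets differed by less, 0.43 at 98331_at (adjusted p 0.327 with the block) and 0.32 at 161984_f_at (0.417), and neither was called.

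Col8a1 encodes a chain of type VIII collagen, a short network collagen known from vessel walls. It read 1249.7, 1143 and 1402 units in mdx leg and 2352, 2479.9 and 3252 in dko leg, so that the lowest dko array was well above the highest mdx array. The log2 difference was 0.99 ± 0.20, with adjusted p 0.119 without and 0.0166 with the block. Col14a1 encodes type XIV collagen, which lies on the surface of type I fibrils. It read 904.4, 826.8 and 804.9 units in mdx leg and 1297, 1724 and 1891 in dko leg, again with no overlap, a log2 difference of 0.82 ± 0.19 (adjusted p 0.22 without and 0.0415 with the block).

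Nid2 encodes nidogen-2, a linker of the basement membrane. It read 464.8, 397.7 and 201.4 units in mdx leg and 643.5, 891.4 and 658.9 in dko leg, with no overlap and a log2 difference of 0.81 ± 0.22 (adjusted p 0.335 without and 0.0415 with the block). Its suffix marks a probe set that can read more than 1 transcript. Nid1, the other nidogen, differed by 0.22 and was not called (adjusted p 0.662 with the block).

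These 5 calls rested on the block and on all 3 leg pairs. With the pair of leg arrays numbered 1 left out the blocked count was 2, without number 2 it was 0, and without number 3 it was 2. Without the block, 1 member was called when the mdx leg array 3 was left out. The dko and mdx leg groups did not overlap for 5 members higher in dko (background 5.02%) and 2 lower (background 4.93%). The higher ones were Col3a1 at 102990_at, Col8a1, Col14a1, Nid2 and Col26a1, and the lower ones were the cartilage collagens Col11a1 (-0.68) and Col10a1 (-0.56), neither of them called. Col10a1 read 312.7, 324.1 and 390.9 units in mdx leg and 217.5, 267.2 and 81 in dko leg, near or below the filter level. Col11a1 read 915.8, 682.6 and 632.8 units in mdx leg and 600.1, 358.4 and 281.4 in dko leg, with dko arrays 2 and 3 below it.

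**Figure D2:**
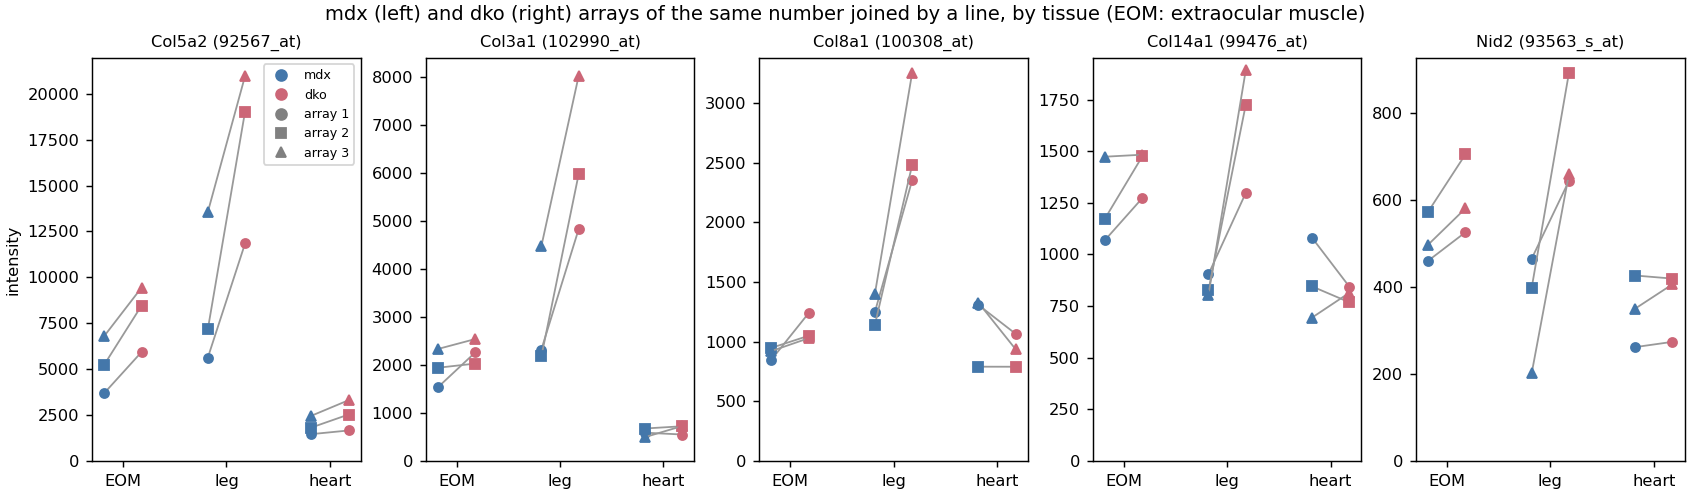
Intensity units of the 5 members called higher in dko leg muscle with the replicate block, in each tissue, with mdx on the left, dko on the right and arrays of the same number joined. In leg muscle every line slopes up, from 804.9 to 1891 units on the arrays numbered 3 for Col14a1 for example, while in heart all 3 lines slope up for Col5a2 alone.

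In bulk tissue fewer or more cells of a type and less or more RNA per cell cannot be told apart. Summed intensities of several marker lists also differed between the leg groups. All 8 listed macrophage markers were on the array, and their sum was 22745 to 38382 units in mdx leg and 41129 to 70763 in dko leg. The activated fibroblast markers (7 of 8 on the array, Postn, Tnc and Timp1 among them) summed to 24123 to 36214 units in mdx leg and 40439 to 61357 in dko leg. The 8 markers of resting fibroblasts and stroma summed to 43280 to 63933 and 65616 to 66266 units. These 3 sums did not overlap, with dko above mdx. Tendon markers (2 of 6 on the array) summed to 9884 to 11846 units in mdx leg and 3863 to 8756 in dko leg. Fmod, 1 of the 2, overlapped between the groups (695.6, 1074.8 and 5590.9 units in mdx and 335.7, 1759.2 and 4361.3 in dko). Neither of the 2 was called in either fit. Cartilage and bone markers (5 of 9 on the array, Matn1 and Matn3 never above the filter) summed to 2345 to 2963 and 1560 to 2229 units. Both of these sums were lower in dko, without overlap. The part of these cells in the collagen differences was not tested.

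Extraocular muscle showed no called difference of any member between dko and mdx, without the block (0 of 47, 0 with an unadjusted p under 0.05, background 0.0225%) or with it (0 of 47, background 0.158%). The median difference of the members was 0.05, and 28 of 47 were above 0. Col5a2 read 3701, 5252 and 6810.3 units in mdx and 5935, 8464 and 9442 in dko extraocular muscle, higher in dko in all 3 numbered pairs, with a log2 difference of 0.60 ± 0.35 (adjusted p 1 without and 0.289 with the block). The groups did not overlap for Col8a1 (0.24) and Col26a1 (0.35) with dko higher (background 2.99%) and for Col18a1 at 101880_at (-0.62) and Lamb3 (-0.37) with dko lower (background 2.66%). All dko values of 101880_at (275.5, 293.7 and 155 units) lay below the filter level. The other tested Col18a1 probe sets overlapped between the groups. From mdx to dko their means went from 1997.5 to 1940 units at 99638_at and from 165 to 403.6 at 101881_g_at. Macrophage markers summed to 14098 to 20081 units in mdx and 38679 to 40859 in dko extraocular muscle, and activated fibroblast markers to 19564 to 25006 and 28321 to 29720, while resting fibroblast markers overlapped (78382 to 83958 and 72250 to 93242). Markers of skin and mucosal epithelium (8 of 8 on the array) summed to 3822 to 4405 units in mdx and 2368 to 2754 in dko extraocular muscle, lower in dko without overlap. Lamb3 at 92759_at read only 154.7, 190.4 and 91.3 units in mdx and 85.6, 89.5 and 44.6 in dko, all below the filter level. Its untested probe set 161188_f_at was not lower in dko (means 110.5 in mdx and 119.03 in dko). The part of these cells in the differences was not tested.

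In heart, too, 0 of the 47 members were called without the block (1 had an unadjusted p under 0.05) or with it, and 0.0% of all probe sets were called in either fit. The median member difference was 0.00, and 25 of 47 were above 0. Lamb3, the laminin beta 3 chain, had the largest difference (0.90 ± 0.26, adjusted p 1 without and 0.361 with the block). The groups overlapped for 46 members, with none higher in dko throughout (background 1.76%), and did not overlap for Col15a1, a basement membrane collagen lower in dko by 0.29 on the log2 scale (background 2.16%, adjusted p 0.943 with the block). Macrophage sums overlapped between mdx (17077 to 19995 units) and dko (17825 to 19334) heart.

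Averaged over the 3 tissues, no member was called without the block (0 of 47, with 6 at an unadjusted p under 0.05, background 0.09%). With the block Col5a2 was called (1 of 47, higher in dko, background 0.788% in either direction and 0.551% higher), with a mean log2 difference of 0.65 and limma's adjusted p of 0.0171. The SE of that difference in the fit without the block was 0.20. In heart it read 1459, 1818 and 2459 units in mdx and 1659, 2527 and 3306 in dko, so that with leg and extraocular muscle it was higher in dko in all 9 numbered pairs. The blocked call was lost when any numbered pair of extraocular or heart arrays was left out and stayed when any leg pair was. Col3a1 at 102990_at came next, with a mean difference of 0.48 and a blocked adjusted p of 0.0501. No member had groups that did not overlap in all 3 tissues (background 0.0563% with dko higher and 0.0788% with dko lower). The dko against mdx difference of leg was also tested against that of the other tissues. No member passed that test, without or with the block, against extraocular muscle (background 0.0% and 0.0338%) or heart (background 0.0% and 0.0675%), and none passed it between extraocular muscle and heart (background 0.0% in both fits). The 5 leg calls are therefore not shown to differ from the differences in the other tissues.

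**Figure D3:**
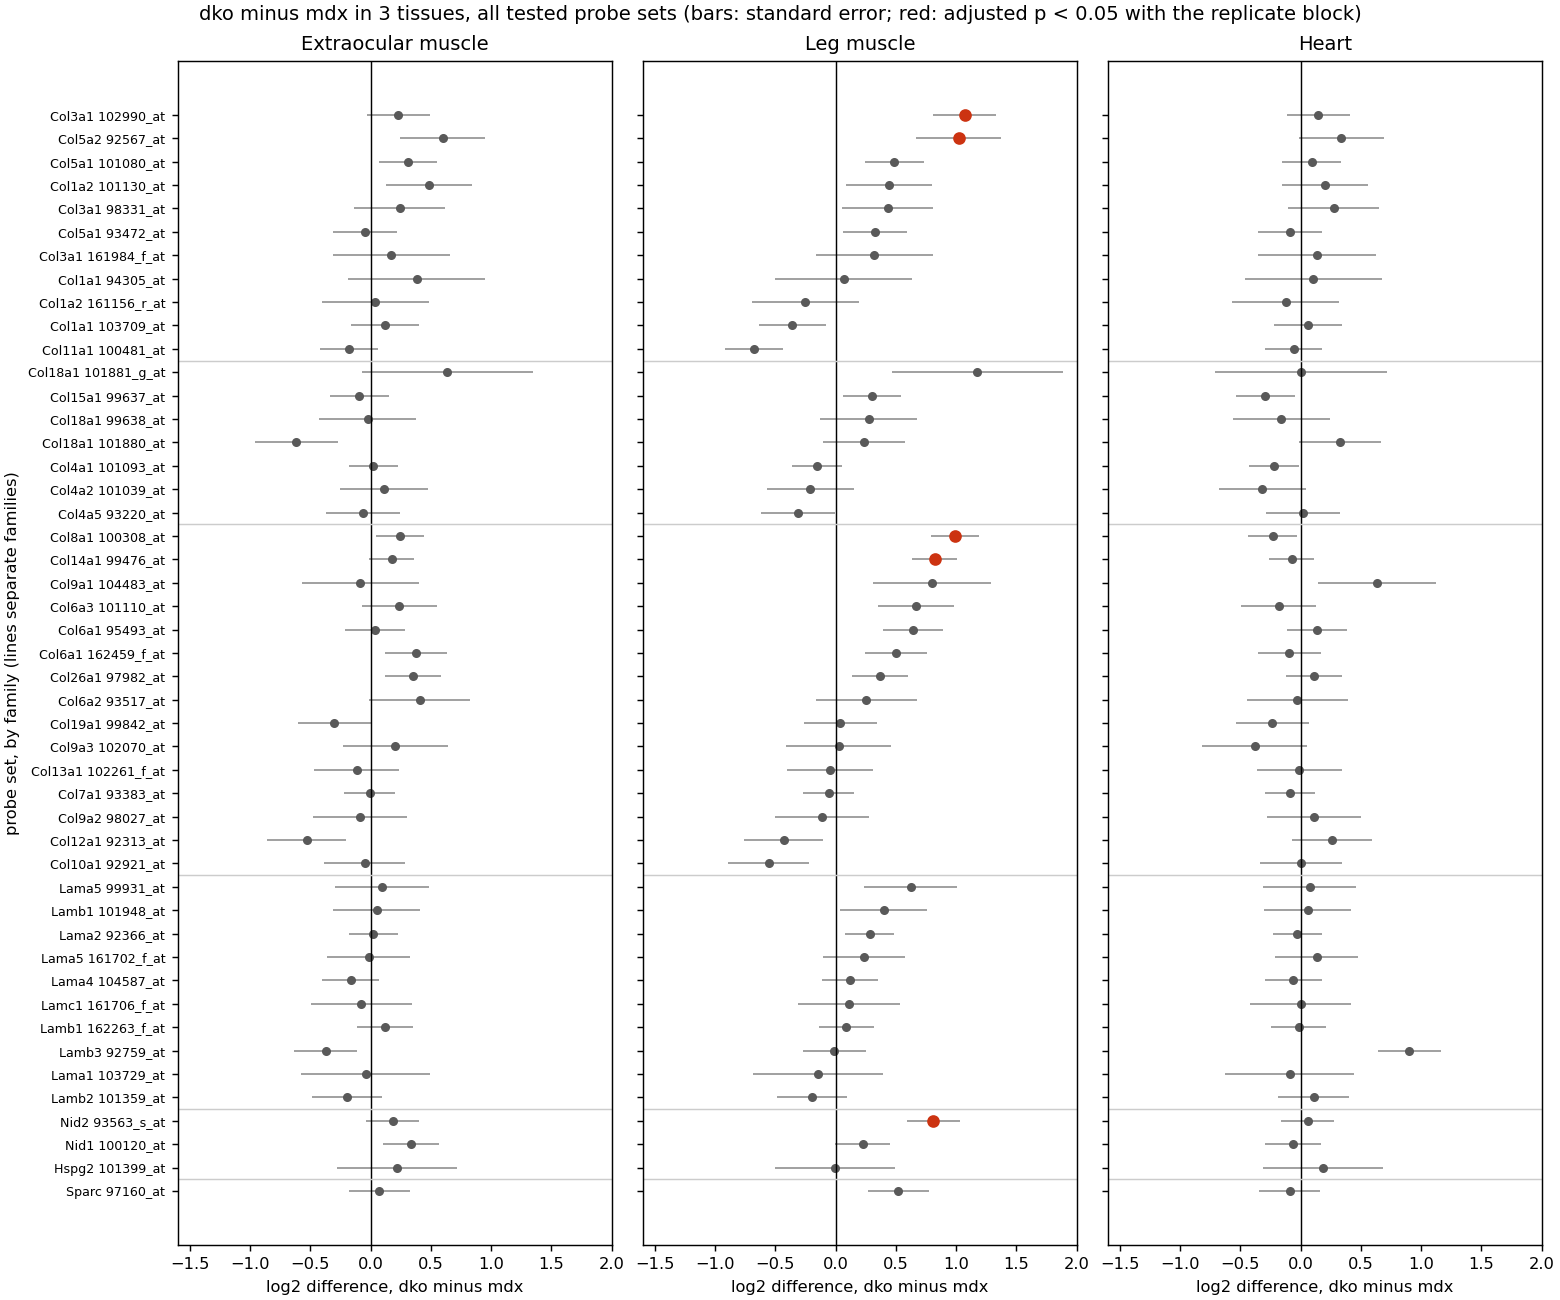
Log2 difference in intensity, dko minus mdx, with its standard error from the fit without the block, of each of the 47 tested probe sets in extraocular muscle, leg muscle and heart, grouped by family. Red points (adjusted p under 0.05 with the replicate block) are the 5 leg probe sets, between 0.81 for Nid2 and 1.07 for Col3a1 at 102990_at.

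The genes that make, bind and break down this matrix were read in leg muscle from 5 lists. Without and with the block 0.0563% and 1.2% of all probe sets were called there, against 0.0225% and 0.158% in extraocular muscle, 0.0% in both fits in heart and 0.09% and 0.788% for the mean of the 3 tissues. Of the enzymes of collagen synthesis and cross-linking, 13 of 20 were tested, 0 passed without the block and 1 rose with it, and the median difference was 0.26. The one that rose was Pcolce, which speeds the trimming of procollagen, from 3779 ± 440 (SD, n = 3) to 6541 ± 296 units (log2 difference 0.77, adjusted p 0.704 without and 0.0369 with the block). Of the non-collagen partners 16 of 19 were tested, 14 differences were above 0 and the median was 0.55. Periostin (Postn), a secreted protein of fibrotic tissue, rose from 8938 ± 1858 to 21417 ± 4374.5 units and passed in both fits (1.24, adjusted p 0.0475 without and 0.0204 with the block). With the block elastin (Eln, 1.26, adjusted p 0.0158), biglycan (Bgn, 0.94, adjusted p 0.017) and the microfibril protein Mfap5 (1.00, adjusted p 0.0246) also rose. Of 11 tested proteases and inhibitors, Mmp3 rose with the block (1.57, adjusted p 0.128 without and 0.015 with it), and the median was 0.16. None of the 15 laminin and collagen receptors and none of the 12 growth factor genes passed in either fit, with medians of 0.06 and -0.06. In extraocular muscle and heart none of the 5 lists held a called gene in either fit. Averaged over the 3 tissues, Postn (0.79, adjusted p 0.0285 without and 0.0187 with the block) passed in both fits, and Mmp3 (0.78, adjusted p 0.222 and 0.0275) and the cross-linking enzyme Lox (1.06, adjusted p 0.0614 and 0.0422) passed with the block.

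The largest differences among the members lay between tissues. Heart was lower than leg for Col1a1, Col1a2, Col3a1, Col5a2, Col6a1, Col6a3 and Col7a1 and higher for Lamb3, Lama5 and Col4a5, in mdx arrays and again in dko arrays. In mdx 13 of the 47 members were called without the block (background 9.97%), 3 of them higher in heart (background 5.04%) and 10 lower (background 4.93%), and 19 with it (background 22.8%). In dko 19 were called (background 10.7%), 3 higher (background 5.16%) and 16 lower (background 5.54%), and 26 with the block (background 23.5%). Both genotypes called 9 probe sets for 7 genes lower in heart (background 3.44%) and 3 probe sets higher (background 3.77%). The 3 called higher include Lamb3, which passed the filter only through its heart values, so the count that bears on the comparison is 2. With the block these counts were 11 probe sets for 8 genes (background 7.2%) and 5 probe sets (background 7.62%), with Lamb3 again among the 5. Lamb3 is also among the 3 called higher within each genotype, and there too its difference was built in. The blocked count was 12 in mdx without the arrays numbered 1 and 17 in dko without those numbered 2. The 11 fibrillar probe sets had a median log2 difference, heart minus leg, of -1.86 in mdx and -1.92 in dko, against -0.002 and 0.016 over all tested probe sets. The 10 laminin probe sets, Lamb3 among them, had medians of 0.49 and 0.37. The 7 probe sets of basement membrane collagens had medians of -0.11 and -0.33, with 3 of 7 above 0 in each genotype.

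Promoter windows are shown for 3 of the genes lower in heart and for 2 of those higher in heart, so that the start regions of genes with opposite differences can be read side by side. Each is the 250 bases before the RefSeq start (build GRCm38.p6) on the strand of the gene, and a CCAAT box or a TATAAA box is in capitals. Col3a1 lies at chr1:45311288-45311537 (+), Col1a2 at chr6:4505368-4505617 (+), Col6a3 at chr1:90843972-90844221 (-), Col4a5 at chrX:141475169-141475418 (+) and Lama5 at chr2:180225860-180226109 (-).
Col3a1: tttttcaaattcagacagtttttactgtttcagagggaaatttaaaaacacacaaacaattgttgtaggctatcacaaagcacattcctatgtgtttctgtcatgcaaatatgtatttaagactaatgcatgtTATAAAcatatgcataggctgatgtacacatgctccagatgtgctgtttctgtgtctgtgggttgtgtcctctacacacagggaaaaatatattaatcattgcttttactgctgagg
Col1a2: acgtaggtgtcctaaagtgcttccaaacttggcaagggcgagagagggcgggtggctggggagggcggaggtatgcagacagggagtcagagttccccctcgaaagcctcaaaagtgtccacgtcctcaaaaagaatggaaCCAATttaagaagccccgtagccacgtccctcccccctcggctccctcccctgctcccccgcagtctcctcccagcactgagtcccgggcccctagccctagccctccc
Col6a3: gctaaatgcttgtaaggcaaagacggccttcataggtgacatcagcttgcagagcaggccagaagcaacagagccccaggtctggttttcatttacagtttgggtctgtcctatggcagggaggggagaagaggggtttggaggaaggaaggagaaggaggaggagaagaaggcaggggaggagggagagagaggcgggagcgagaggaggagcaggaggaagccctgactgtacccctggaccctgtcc
Col4a5: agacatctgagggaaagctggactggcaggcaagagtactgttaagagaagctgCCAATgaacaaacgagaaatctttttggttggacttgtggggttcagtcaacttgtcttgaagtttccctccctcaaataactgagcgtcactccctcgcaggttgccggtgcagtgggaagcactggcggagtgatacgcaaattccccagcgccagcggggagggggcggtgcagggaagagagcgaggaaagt
Lama5: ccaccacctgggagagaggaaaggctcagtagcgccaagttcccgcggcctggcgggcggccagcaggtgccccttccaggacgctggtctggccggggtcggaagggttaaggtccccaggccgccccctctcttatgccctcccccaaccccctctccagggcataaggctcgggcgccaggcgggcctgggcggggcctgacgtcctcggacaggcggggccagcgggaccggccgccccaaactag
The Col3a1 window holds TATAAA, the Col1a2 and Col4a5 windows hold CCAAT, and no window shown holds both. The Col6a3 and Lama5 windows and both RefSeq windows of Lamb3 hold neither. Both motifs were searched on both strands (as ATTGG and TTTATA on the other), and an overlap of one with the other was allowed. The set of promoters that was searched held 30 of the 44 member genes, matched by symbol. CCAAT was in 11 of them (36.7%, against 37.5% of 27025 genes) and TATAAA in 5 (16.7%, against 14.3%). A match is a description of the letters and not a binding site.

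Among the fibrillar collagens, Col1a1 and Col1a2 encode the chains of type I collagen, the main protein of tendon and scar. Col1a1 at 94305_at read 17281, 16292 and 53828 units in mdx leg and 5109, 4245 and 11165 in mdx heart, and 21483, 21740.5 and 37274 in dko leg and 5042, 5032 and 11926 in dko heart. Array 3 was the brightest of every group, and heart lay below leg throughout. The log2 differences were -1.96 ± 0.57 in mdx (adjusted p 0.0371) and -1.92 ± 0.57 in dko (0.0395). The other Col1a1 probe set, 103709_at, was lower in heart by 1.32 in mdx (adjusted p 0.00514) and 0.90 in dko (adjusted p 0.0515 without and 0.00219 with the block) on the log2 scale.

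Col1a2 at 101130_at read 11844, 8308 and 22488 units in mdx leg, 2896, 2499.7 and 3982 in mdx heart, 13575, 17217 and 24084 in dko leg and 3154, 2994 and 4749 in dko heart. Heart was 4.08-fold lower in mdx and 4.82-fold lower in dko (log2 -2.03, adjusted p 0.00103, and -2.27, 0.000365). The other Col1a2 probe set, 161156_r_at, did not follow it. It read 11202, 9654 and 4504 units in mdx leg and 10990.5, 7299.9 and 5402 in mdx heart, a log2 difference of -0.06 (adjusted p 0.986), and in all 6 groups its array 1 was the brightest and its array 3 the dimmest. Its suffix marks a probe set for which a design rule was dropped, and which of the 2 probe sets follows the transcript was not tested.

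Col3a1 differed at all 3 of its probe sets. At 98331_at it read 12715, 17667 and 41189.7 units in mdx leg and 4852, 6076 and 6195 in mdx heart, and 24209, 26991 and 35093 in dko leg and 5342, 6295 and 9706 in dko heart. The log2 differences were -1.86 ± 0.38 (adjusted p 0.00366) and -2.02 ± 0.38 (0.00169). At 161984_f_at, which is dimmer on array 3, they were -2.07 and -2.25, and at 102990_at -2.002 and -2.93. In heart 102990_at read 588.6, 675.3 and 494.8 units in mdx and 550.4, 721.9 and 725.9 in dko.

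Col5a2, whose leg and heart values are given above, was 4.1-fold lower in mdx heart and 6.58-fold lower in dko heart (log2 -2.04 ± 0.35, adjusted p 0.000978, and -2.72 ± 0.35, 5.91e-05). Col5a1, the partner chain in type V collagen, was lower at both of its probe sets in dko heart, by 1.18 at 101080_at (adjusted p 0.00383) and 0.92 at 93472_at (0.0337). In mdx it was lower by 0.79 and 0.50, which did not pass without the block (0.0535 and 0.319), and the first of these passed with it (0.00546, against 0.172 for the second).

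Type VI collagen forms beaded filaments next to the basement membrane of muscle fibres, and its mutation causes muscle disease. Col6a3 at 101110_at read 8864, 11161 and 21764 units in mdx leg and 14372, 21712 and 28139.9 in dko leg. In heart it read 4724, 4245 and 5137 units in mdx and 4189, 3631 and 4558 in dko, a narrow range below every leg array. The log2 differences were -1.43 ± 0.31 (adjusted p 0.00652) and -2.28 ± 0.31 (0.000103).

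Col6a1 was called in both genotypes at its dimmer probe set, 162459_f_at, with log2 differences of -0.86 (adjusted p 0.044) and -1.46 (0.00109). At the brighter 95493_at it read 10066, 6995 and 13739.5 units in mdx leg, 7385, 6534 and 5410.2 in mdx heart, 13105, 15159.8 and 18767 in dko leg and 8668, 7071 and 5706 in dko heart. The groups overlapped in mdx (-0.62, adjusted p 0.155) and not in dko (-1.12, 0.00681). Col6a2 read 4923, 4504 and 10557 units in mdx leg and 4864, 3553 and 5133 in mdx heart, 4883, 6572 and 12507 in dko leg and 4991, 3709 and 4518 in dko heart, and was called in neither genotype (-0.45 and -0.73). Col7a1, the anchoring fibril collagen known from skin, was lower in heart by 0.86 in mdx (adjusted p 0.0135) and 0.89 in dko (0.01), from 1463, 1521 and 1168 units in mdx leg and 1176, 1446 and 1336 in dko leg to 778.2, 699.6 and 580.7 and 633.6, 530.1 and 744.4 in heart.

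Some members were called in dko alone. Sparc read 7548, 8775 and 16454 units in mdx leg and 7515, 8026 and 7723 in mdx heart, which overlapped (-0.40, adjusted p 0.433), and 13366, 15521 and 15791 in dko leg and 7009, 7682 and 7123 in dko heart, which did not (-1.01, 0.0139). Its 6 heart values span a narrower range than those of leg. Col8a1 (-1.38), Col14a1 (-0.87) and Nid2 (-0.75) were lower in dko heart than in dko leg and differed by -0.16, 0.02 and 0.00 in mdx. The difference between the genotypes in that contrast was tested as the leg against heart interaction above, and no member passed.

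**Figure D4:**
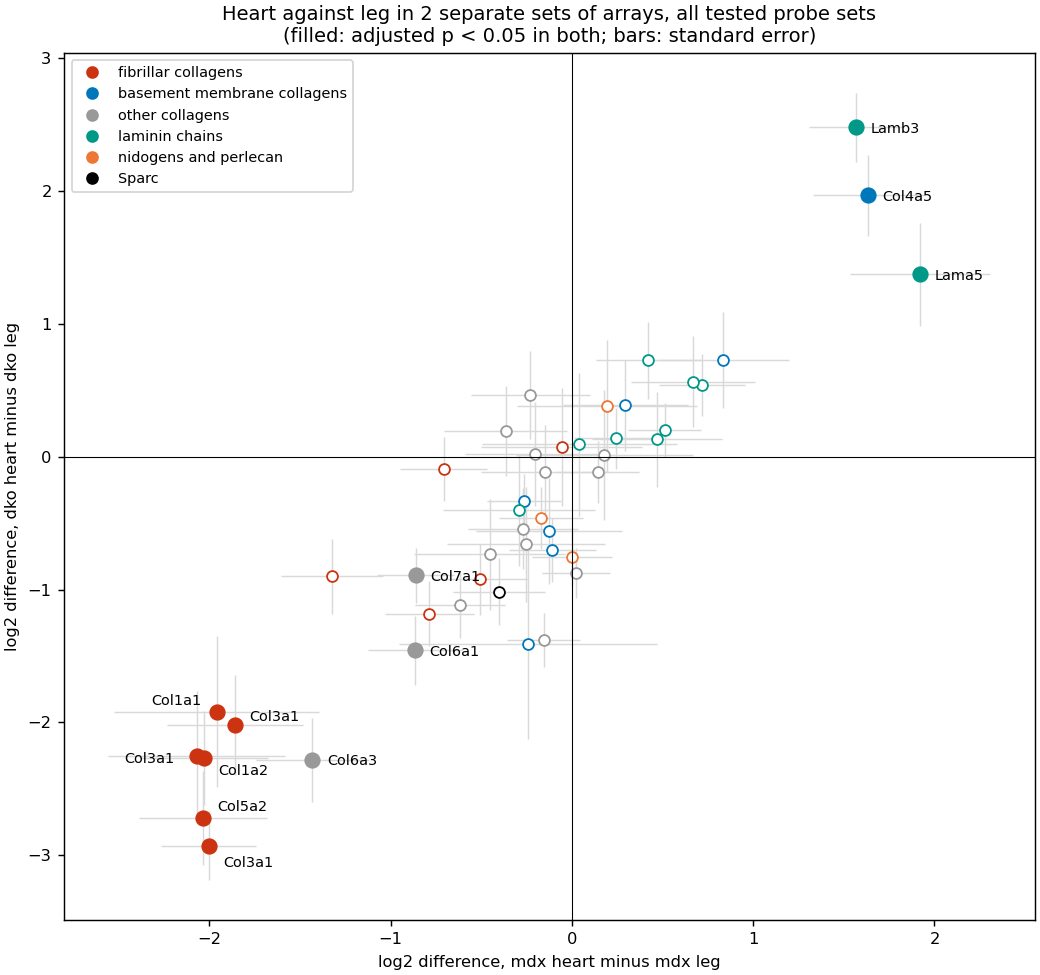
Log2 difference in intensity between heart and leg in mdx arrays (horizontal) and dko arrays (vertical), with standard errors, for each tested probe set, coloured by family and filled where both were called without the block. The 9 filled points at the lower left are fibrillar, type VI and type VII collagens, down to -2.93 for Col3a1 at 102990_at in dko, and the 3 at the upper right are Lama5, Col4a5 and Lamb3, the last of which passed the filter through heart alone.

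Col4a5, Lama5 and Lamb3, all of them chains of basement membranes, were higher in heart than in leg. Col4a5 encodes a type IV chain that joins a specialised network in kidney, smooth muscle and other basement membranes. It read 1074, 1055 and 1152 units in mdx heart and 1166, 1133 and 1042 in dko heart, a narrow band, and 120, 547.1 and 159.2 in mdx leg and 70, 196.4 and 239.4 in dko leg. Heart was 3.11-fold and 3.91-fold higher (log2 1.64 ± 0.31, adjusted p 0.00194, and 1.97 ± 0.31, 0.000365). Most leg values lie under the filter level, so these folds are understated by the offset added before the logarithm.

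Lama5 encodes the alpha 5 chain of laminins found in vessels and in many adult basement membranes. At 99931_at it read 2412, 2379 and 3038 units in mdx heart and 2582, 2516 and 3162 in dko heart, above all leg arrays (290.4, 383.7 and 1372 in mdx and 795.4, 815.4 and 1329 in dko). The log2 differences were 1.92 ± 0.39 (adjusted p 0.00359) and 1.37 ± 0.39 (0.0312). Its second probe set, 161702_f_at, differed by 0.67 in mdx (adjusted p 0.303 without and 0.0328 with the block) and 0.56 in dko (0.414 and 0.0662).

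Lamb3 encodes the beta 3 chain of the laminin that anchors epithelia to their basement membrane. Its probe set 92759_at read 503.6, 477.5 and 1009 units in mdx heart and 1562, 931.9 and 1575 in dko heart, and between 38.3 and 190.4 units on the 12 arrays of leg and extraocular muscle. It passed the filter through the 6 heart arrays alone, so a difference from the other tissues was built in, and its log2 differences from leg, 1.57 in mdx and 2.48 in dko, are given as a description with no test. Since the leg and extraocular values are all below the filter level, the folds are understated. The other Lamb3 probe set, 161188_f_at, was not tested and read 206, 145.6 and 367.1 units in mdx heart and 297.6, 117.6 and 433.3 in dko heart, against 78.2 to 168.5 on the other arrays. Lama3, the alpha chain of the same laminin, was not tested, and its probe set read 76.1 to 272.2 units in heart and 82 to 503.7 elsewhere. Itgb4, which encodes part of the integrin that binds this laminin, was not called between heart and leg in either genotype. Its means were 303.9 units in mdx heart and 350.2 in mdx leg, and 162.8 and 400.2 in dko. These lay within or below the range of the filter level, while the extraocular means were 1235 in mdx and 1460.9 in dko. Heart was lower than extraocular muscle by 1.57 in mdx and 2.26 in dko on the log2 scale. The filter could be passed through extraocular muscle, so this is a description with no test. Markers of skin and mucosal epithelium (8 of 8 on the array, Epcam never above the filter) summed to 2070 to 3348 units in heart, 2281 to 3596 in leg and 2368 to 4405 in extraocular muscle.

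With the block, Col18a1 at 101881_g_at (-1.41, blocked adjusted p 0.00167) and Col15a1 (-0.70, 0.0111) were called lower in dko heart than in dko leg. In mdx they differed by -0.24 and -0.11 and were not called. Probe set 101881_g_at read 220.2, 841.3 and 1395 units in dko leg and 60.4, 107.8 and 351.9 in dko heart. Its array 3 lay above the mean of arrays 1 and 2 in all 6 groups, with a median ratio of 6.4. The other tested Col18a1 probe sets were not called in dko. From dko leg to dko heart the mean fell from 2306.3 to 1565.7 units at 99638_at and rose from 250.4 to 380.9 at 101880_at. With the block Lama4 and Col4a2 were also called higher in heart in both genotypes. Lama4, the alpha chain of vessel laminins, was higher by 0.72 in mdx and 0.54 in dko (blocked adjusted p 0.00125 and 0.00864). Lamb2 was called higher in dko (0.73, blocked adjusted p 0.00216) and Lama2, the alpha chain of the muscle fibre laminin, in mdx (0.51, 0.0404). Beside these, the 9 endothelial markers, all on the array, summed to 31626 to 48243 units in heart, 14267 to 18903 in leg and 18496 to 31460 in extraocular muscle. Activated fibroblast markers summed to 16537 to 22665 units in heart and 24123 to 61357 in leg, and resting fibroblast markers to 47820 to 69426 in heart and 43280 to 66266 in leg. Tendon markers summed to 1962 to 6410 units in heart and 3863 to 11846 in leg. Macrophage markers summed to 17077 to 19995 units in heart and 22745 to 70763 in leg, without overlap. The part of these cells in the differences between tissues was not tested.

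Several pathway genes were called between heart and leg in both genotypes without the block (background 3.44% lower and 3.77% higher in heart). Lower in heart were Postn (-1.40 in mdx and -2.30 in dko), the glycoprotein Tnc (-1.43 and -2.76), Lox (-1.54 and -2.17), the inhibitor Timp1 (-1.48 and -1.77) and the protease Ctsk (-0.83 and -1.40). The collagenase Mmp13 was also lower (-2.11 and -1.88). Its means were 1560.7 ± 776.5 (SD) units in mdx leg and 761.9 ± 258.5 in dko leg. In heart they were 213.1 ± 60.1 and 89.2 ± 90.5, and in extraocular muscle 152.3 ± 106.4 and 225.2 ± 117.8. Mmp13 thus passed the filter through its leg values, so a difference from leg was built in. It is given as a description with no test. Higher in heart were the inhibitor Timp3 (0.87 and 1.04), fibulin-1 (Fbln1, 2.09 and 1.73) and Ccn2 (1.86 and 1.40), a matrix protein induced by growth factors. None of the 15 tested receptors was called between heart and leg without the block (background 9.97% in mdx and 10.7% in dko). With it Sgca, the alpha-sarcoglycan of the dystrophin complex, was called lower in mdx heart (-0.73, adjusted p 0.337 without and 0.00397 with the block, background 22.8%). In dko the laminin-binding integrin chains Itga3 (0.48, adjusted p 0.521 and 0.0233) and Itga6 (0.51, adjusted p 0.438 and 0.0385) were called higher in heart with the block (background 23.5%).

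Col4a1 and Col4a2 encode the 2 kinds of chain of the main type IV trimer. The genes lie head to head on chromosome 8. By RefSeq the start of Col4a2 on the plus strand and that of Col4a1 on the minus strand both fall in chr8:11312805-11312826 (GRCm38.p6), shown here on the plus strand because the pair shares it as the start region.
Col4a1 and Col4a2 start: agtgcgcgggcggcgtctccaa
In mdx, Col4a1 at 101093_at read 12315, 14924 and 18258 units in heart, 16056, 17348 and 20949.9 in leg muscle and 11015, 11414 and 16166 in extraocular muscle. In dko it read 10882, 13804 and 13981 units in heart, 15199, 17399.8 and 15957 in leg muscle and 11402, 13354 and 13979.6 in extraocular muscle. Its heart minus leg differences, -0.26 in mdx and -0.33 in dko, were below 0 and were called in neither fit.

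In mdx, Col4a2 at 101039_at read 12729, 13659 and 22238 units in heart, 6269, 8634 and 12245 in leg muscle and 4951, 7025 and 9511 in extraocular muscle. In dko it read 9411, 13596 and 15441 units in heart, 5916, 9362 and 7665 in leg muscle and 4308, 10172 and 9509 in extraocular muscle. Every heart array was above every leg array of the same genotype, in dko by a narrow margin. The heart minus leg differences were 0.83 and 0.73, with adjusted p 0.193 and 0.277 without and 0.00565 and 0.013 with the block.

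The difference of the pair on each array, log2 Col4a2 minus log2 Col4a1, was -0.21 to 0.28 on the 6 heart arrays, -1.34 to -0.77 on the 6 leg arrays and -1.37 to -0.39 on the 6 extraocular arrays. Heart did not overlap with either. It was higher in heart than in leg by 1.08 on average and in 6 of 6 pairs of the same genotype and number. The pair was singled out after its values were seen and is given without a test. The value shows that the probe sets moved unequally and not how many chains of each were made, and 0 on this scale has no meaning because it sets 2 probe sets side by side.

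**Figure D5:**
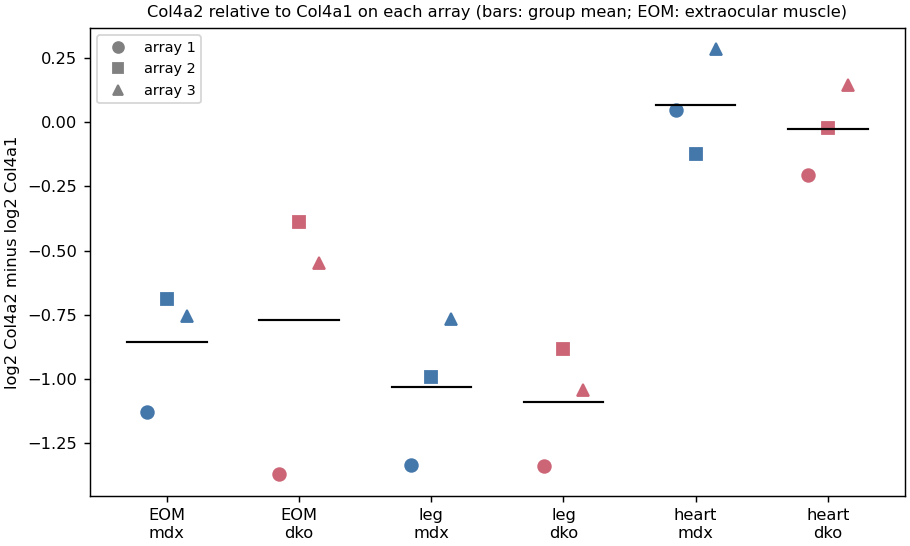
Log2 intensity of Col4a2 minus that of Col4a1 on each array, by tissue and genotype, with bars at the mean of 3 arrays. The heart arrays lie from -0.21 to 0.28, above all leg and extraocular arrays, of which the highest is -0.39.

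Extraocular muscle was brighter than heart for the main fibrillar collagens. Against heart, 5 members were called in mdx without the block (background 7.05%), 4 of them higher in extraocular muscle (background 3.76%) and 1 lower (background 3.3%), and 15 with it (background 17.7%). In dko 9 were called (background 7.66%), 8 higher (background 4.23%) and 1 lower (background 3.43%), and 19 with the block (background 18.6%). Called higher in both genotypes were Col1a2, Col3a1 at 98331_at and 102990_at, and Col5a2 (4 probe sets, background 2.94%), and called lower was Lamb3 (1 probe set, background 2.58%), which passed the filter only through its heart values and is left out of the comparison. With the block 10 probe sets for 7 genes were called higher in both genotypes (background 6.18%) and 4 lower (background 6.23%), with Lamb3 again among the 4. Col1a2 read 6754, 8148 and 13458 units in mdx and 11245, 11437 and 16048 in dko extraocular muscle, 1.51 and 1.79 above heart on the log2 scale. Col3a1 at 98331_at read 15209.9, 13827 and 24142 and 15407, 19045 and 28661 units, 1.57 and 1.54 above heart. Col1a1 at 94305_at read 11497, 13967 and 34592 and 15308, 18257 and 44312 units and passed with the block (1.48 and 1.76, adjusted p 0.163 and 0.0777 without and 2.52e-05 and 4.05e-06 with it). The blocked count was 9 in mdx without the arrays numbered 2, and 11 and 10 in dko without those numbered 1 and 2. Without the block the mdx count was 2 without the mdx extraocular array 3 or the mdx heart array 1 and 3 without the mdx heart array 2, and the dko count was 5 without the dko extraocular array 2 or any dko heart array, or with the compared groups fitted alone. Resting fibroblast markers summed to 72250 to 93242 units in extraocular muscle, above every heart and leg array. Schwann cell and nerve markers (5 of 7 on the array) summed to 17739 to 26724 units there and 3910 to 8196 in heart and leg. The part of these cells was not tested.

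Between extraocular muscle and leg few members differed. In mdx 0 of 47 were called without the block (6 had an unadjusted p under 0.05, background 4.02%) and 6 with it (background 12.4%). In dko 3 were called (background 2.14%), 1 higher (background 1.43%) and 2 lower (background 0.709%), and 6 with the block (background 7.58%). Those of dko were Col3a1 at 102990_at (-1.37, adjusted p 0.0102) and Col8a1 (-1.16, 0.00519), lower in extraocular muscle, and Col4a5 (1.25, 0.0467), higher. Without the block none was called in both genotypes (background 1.1% higher and 0.506% lower). With the block both called Col6a3 and Col5a2 lower (background 2.19%) and Col4a5 higher (background 2.9%) in extraocular muscle. Col4a5 read 848.6, 465.4 and 668.7 units in mdx and 676.6, 452.6 and 740.2 in dko extraocular muscle, between leg and heart by its group means. Col6a3 read 7307, 7491 and 9117 and 7277, 8704 and 13056 units, also between the means of leg and heart. The dko calls without the block depended on single arrays, since the count was 1 without the dko extraocular array 2 or the dko leg array 3 and 0 with these groups fitted alone.

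The other tested members stayed without a call in the dko against mdx comparisons, and several were dim. Hspg2, which encodes perlecan, read 3276, 4071 and 9826 units in mdx leg and 3670.2, 5019.6 and 10796 in mdx heart, with array 3 the brightest, and its dko minus mdx differences were 0.22, -0.01 and 0.18 in extraocular muscle, leg and heart. Lama2, which carries the contact with dystroglycan around the muscle fibre, differed by 0.02, 0.28 and -0.03 in the same order (smallest adjusted p 0.456, in leg with the block). Lamb1 at 162263_f_at differed by 0.12, 0.09 and -0.02, and Lamc1 by -0.08, 0.11 and 0.00. The other Lamb1 probe set, 101948_at, had means of 754.5 units in mdx leg and 1045.4 in dko leg. Its leg groups overlapped and it was not called. The cleavage products of Col18a1 and Col15a1 are known as inhibitors of vessel growth. Col18a1 was read by 3 tested probe sets whose leg differences were unequal (log2 0.27, 0.23 and 1.18, none called). The last of them, 101881_g_at, read 48.7, 62.4 and 901 units on the mdx leg arrays and 220.2, 841.3 and 1395 on the dko leg arrays, so that array 3 exceeded the others in both groups.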

How the data were processed

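The members and all lists were chosen with earlier results of these data known. The deposited table holds 1 intensity value per probe set and array, and no label or header says how the values were made from the scans. The values, as deposited, are linear intensities scaled so that the mean of each array without the top and bottom 2% lies at 1500.69 to 1501.15. An intensity has no read depth, so the number of arrays limits the precision. The offset 166.7 was added before log2, which understates the change of dim probe sets. Control probe sets (66) and those not above the 40th percentile of an array on at least 3 of 18 arrays were left out, and 8888 were tested. Probe sets were named from the platform annotation, which gives a single symbol for 10833 of them, more than 1 for 396 and no symbol for 1193. The symbols of all 62 member probe sets are current in RefSeq. Promoters are from the same release (GRCm38.p6).

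One limma model (version 3.58.1, R 4.3.3) was fitted to all 6 groups, with two-sided moderated tests of the dko against mdx differences in each tissue, their mean and their interactions, and of the tissues within each genotype. P-values were adjusted by the Benjamini-Hochberg method over all tested probe sets, separately for each contrast. A probe set counts as called below an adjusted p of 0.05. The scripts were tested on simulated data. Whether array numbers pair samples was checked on the values. Deviations from the group means of the dko and mdx array of 1 tissue and number correlated at 0.404 to 0.751 in all 9 pairs (median 0.61). Arrays of the same number in different tissues correlated at 0.327 to 0.74 in all 36 pairs (median 0.536). Sharing a number is therefore not shown to mark matched samples within a tissue. Values with the number as a block are given beside those without it where the call of a named gene changes. The dko against mdx tests and their interactions had block terms for each number within each tissue, and the tests between tissues had common terms for each number. What the number stands for is not given by the labels. A gene with several probe sets is represented by its brightest, and other probe sets are given for a number of members. For the genes of the pathway and marker lists only the brightest was read, and disagreement between their probe sets was not checked.

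Genes were named by these rules: the 10 brightest members, every member called between dko and mdx in a tissue, the mean or an interaction with or without the block, up to 5 in each direction called in both genotypes between tissues, and members whose groups were apart in all 3 tissues. Col7a1, Col5a1, Col10a1, Col11a1, Col15a1, Col18a1, Col26a1, Hspg2, Nid1, Itgb4, Sgca, Itga3, Itga6, Timp1, Ctsk and the laminin chains beyond Lama5 and Lamb3 were named after their values were seen. Alternatives were another offset, no filter, scaling to the 75th percentile, quantile normalization, each array left out and the compared groups fitted alone. Plots used Python 3.11.15 with matplotlib 3.10.9.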

Additional observations from a re-analysis of the deposited data

How the results depend on the processing

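Counts below are of the 47 tested members called by limma, and those with the block and a left-out pair or another scaling were added after the data were seen. With the replicate block the leg count (dko against mdx) rose from 0 to 5, to 5 with scaling to the 75th percentile and to 6 with quantile normalization, and was 2, 0 and 2 without the leg arrays numbered 1, 2 and 3. The mean over tissues rose from 0 to 1 with the block, to 2 with the 75th percentile and to 1 with quantiles, and was 1 with each leg pair left out in turn and 0 with each other pair left out. Between extraocular and leg muscle the blocked count was 6 in mdx (1, 1 and 2 without numbers 1, 2 and 3) and 6 in dko (5 without number 1). With the groups fitted alone and no block it was 0 in dko. Between extraocular muscle and heart the blocked count was 15 in mdx (11, 9 and 11) and 19 in dko (11, 10 and 13), and 5 in dko with the groups fitted alone and no block. Between heart and leg it was 19 in mdx (12, 17 and 15) and 26 in dko (24, 17 and 20). Without the block and with single arrays left out, the count for leg was 0 to 1 (1 without mdx leg array 3). For extraocular muscle against leg it was 0 to 1 in mdx (1 without mdx leg array 2 or 3) and 1 to 2 in dko (1 without dko extraocular array 2 or dko leg array 3), and against heart 2 to 5 in mdx (2 without mdx extraocular array 3 or mdx heart array 1, 3 without mdx heart array 2) and 5 to 6 in dko. Heart against leg gave 10 to 12 in mdx and 14 to 16 in dko, and the remaining dko against mdx counts were 0 throughout. The smaller offset of 32, no filter, and either scaling without the block kept every count within 1.5 times. Read from its second probe set, Col1a2 changed sign to -0.132 between extraocular muscle and heart in mdx and to 0.072 between heart and leg in dko (adjusted p 0.958 and 0.978). Where the cause is not the smaller number of arrays, it was not tested. The groups fitted alone were not run for the mean of the tissues. Values below the filter level, such as those of Lamb3 and Col4a5 in leg, are near background and limit the folds there.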
